A study of Mus musculus with 7 samples.

Results

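Connexins are the proteins that build gap junctions, and 6 genes of this channel system were followed in mini-oocytes, the oocyte-like cells obtained from mouse embryonic stem cells (mESCs) by forced expression of oocyte transcription factors. They are the connexin genes Gja1, Gja4, Gjb2, Gjb5 and Gjc1 and the pannexin gene Panx1. The members were found by gene symbol, with no threshold on their values, and make up 6 of the 55364 genes in the expression table. Total RNA-seq gave 7 libraries in 3 groups. The first group is 4F-mini-oocytes at day 7 (n = 2, 1000 cells in each sample), with Nobox, Figla, Tbpl2 and Lhx8 as the forced factors. The second group is 4F-mini-oocytes at day 21 (n = 3, 10 cells in each sample). The third group is 8F-mini-oocytes at day 21 (n = 2, 10 cells in each sample), with Stat3, Dynll1, Sub1 and Sohlh1 in addition to the 4F. Both lines descend from the female mESC line BVSC H18 (hybrid 129/C57BL6), and the 8F line also carries an Npm2-mCherry reporter. In both lines each factor is fused to a domain that has it degraded unless the ligand Shield1 is present. All groups grew on laminin without ovarian somatic cells, in a medium with serum, SCF and the ROCK inhibitor Y-27632, and Shield1 was left out of the fresh medium in the later part of the culture, after day 7 and before day 21. The day, the withdrawal of Shield1 and the number of pooled cells changed together, so their parts in a day 21 to day 7 difference cannot be told apart, and 8F-mini-oocytes at day 7 were not analysed here. The labels do not say that the samples came from separate cultures, so the p-values measure only the spread between these samples, which may be technical.

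Connexin subunits assemble into a hemichannel, and hemichannels of neighbouring cells dock into a gap junction that lets ions and small molecules pass. In the ovarian follicle the oocyte is joined to the granulosa cells around it by such junctions, through which it receives nutrients and the cyclic nucleotides that hold it in meiotic arrest. Connexin 37, the product of Gja4, is the connexin of the oocyte side, whereas connexin 43, the product of Gja1, joins granulosa cells to each other. Pannexins share the membrane layout of connexins but mostly act as single-membrane channels that release ATP.

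The values are TPM, or reads per base of exon brought to a common sum in each library, so that levels of different genes can be compared. Reads on genes, estimated from the steps of the lowest TPM values, came to between 9051761 and 17190271 per library, and the 10 highest genes took 28.5% to 31.8% of the TPM at day 7 and 10.2% to 14.0% at day 21. The 10 oocyte markers examined, among them Zp1, Zp2 and Zp3 of the egg coat, were at 1 TPM or more in all 7 libraries. Their summed level was 12910 to 15330 TPM at day 7, 36180 to 38620 TPM in 4F at day 21 and 30010 to 30970 TPM in 8F at day 21. The sum of 12 granulosa markers did not exceed 29.8 TPM in any library. The granulosa gene Inha was at 0 in all 7, but 2 to 5 of the 12 were at 1 TPM or more in a library.

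In the mm10 genome, Gja4 (ENSMUSG00000050234.7) lies on the minus strand at chr4:127311421-127314039 and Gjb5 (ENSMUSG00000042357.2) on the same strand at chr4:127354809-127358181. Gjb2 (ENSMUSG00000046352.7) lies at chr14:57098600-57104702, Gjc1 (ENSMUSG00000034520.14) at chr11:102799579-102819700 and Panx1 (ENSMUSG00000031934.14) at chr9:15002128-15045478, all on the minus strand, and Gja1 (ENSMUSG00000050953.10) at chr10:56377330-56402513 on the plus strand. The coding sequence of each of the 5 connexins is annotated in 1 block, with 678 coding bases in Gjb2 and 1188 in Gjc1 as the shortest and the longest, and that of Panx1 in 5 blocks. No exonic base of the 6 genes is shared with another annotated gene.

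The 250 bases before the start of Gja4 and of Gjb2, the members that rose from day 7 to day 21, are shown because the forced factors include DNA-binding proteins. Both are written 5′ to 3′ on the minus strand, from RefSeq for GRCm38.p6, at chr4:127314040-127314289 for Gja4 and chr14:57104703-57104952 for Gjb2, with motif matches in capitals. The start sites used in these cells were not measured here.
Gja4: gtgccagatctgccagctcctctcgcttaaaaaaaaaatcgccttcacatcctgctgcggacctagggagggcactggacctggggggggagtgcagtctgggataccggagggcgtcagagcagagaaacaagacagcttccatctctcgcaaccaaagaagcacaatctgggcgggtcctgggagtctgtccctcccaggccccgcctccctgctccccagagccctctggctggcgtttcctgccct
Gjb2: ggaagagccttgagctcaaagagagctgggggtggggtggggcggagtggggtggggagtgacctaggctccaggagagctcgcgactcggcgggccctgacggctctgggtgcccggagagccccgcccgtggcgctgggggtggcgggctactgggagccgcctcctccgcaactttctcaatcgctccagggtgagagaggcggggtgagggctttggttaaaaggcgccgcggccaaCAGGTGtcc
The window of Gja4 is 61.2% G and C and that of Gjb2 69.2%, with 9 and 18 CpG dinucleotides, against medians of 52.4% and 6 over 32851 windows of mouse genes. Both strands were searched for the E-box CANNTG, which helix-loop-helix proteins such as Figla and Sohlh1 can bind. They were also searched for the NOBOX element, with the letters TAATTG or, from the other strand, CAATTA. The LIM homeodomain core TAATTA and the TATA element, with the letters TATAAA or, from the other strand, TTTATA, completed the search, and this core differs from the NOBOX element in its last letter only. The Gjb2 window held the E-box CAGGTG at 9 to 4 bases before the start and no other match, and the Gja4 window held none of these letters. An E-box was found in 66.2% of all windows, the NOBOX element in 7.17%, the LIM homeodomain core in 4.84% and the TATA element in 12.4%. Of the other members, Gja1 had the E-box CAGTTG at 23 to 18 bases before its start, Gjb5 had TTTATA at 243 to 238 bases, Panx1 had no match, and Gjc1 was not among the windows. A match is a run of letters, not a bound site.

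Gja4 was the highest member in every group and rose about 9-fold from day 7 to day 21 in 4F-mini-oocytes, and Gjb2 rose about 6-fold. Gjc1, which stood beside Gja4 at day 7, did not rise, so that the connexin RNA of day 21 was mostly Gja4. Panx1 was at 3.42 to 15.8 TPM, while Gja1 was near 0 throughout and Gjb5 appeared in a single day 7 library. The plot of the members by library shows these levels.

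**Figure D1:**
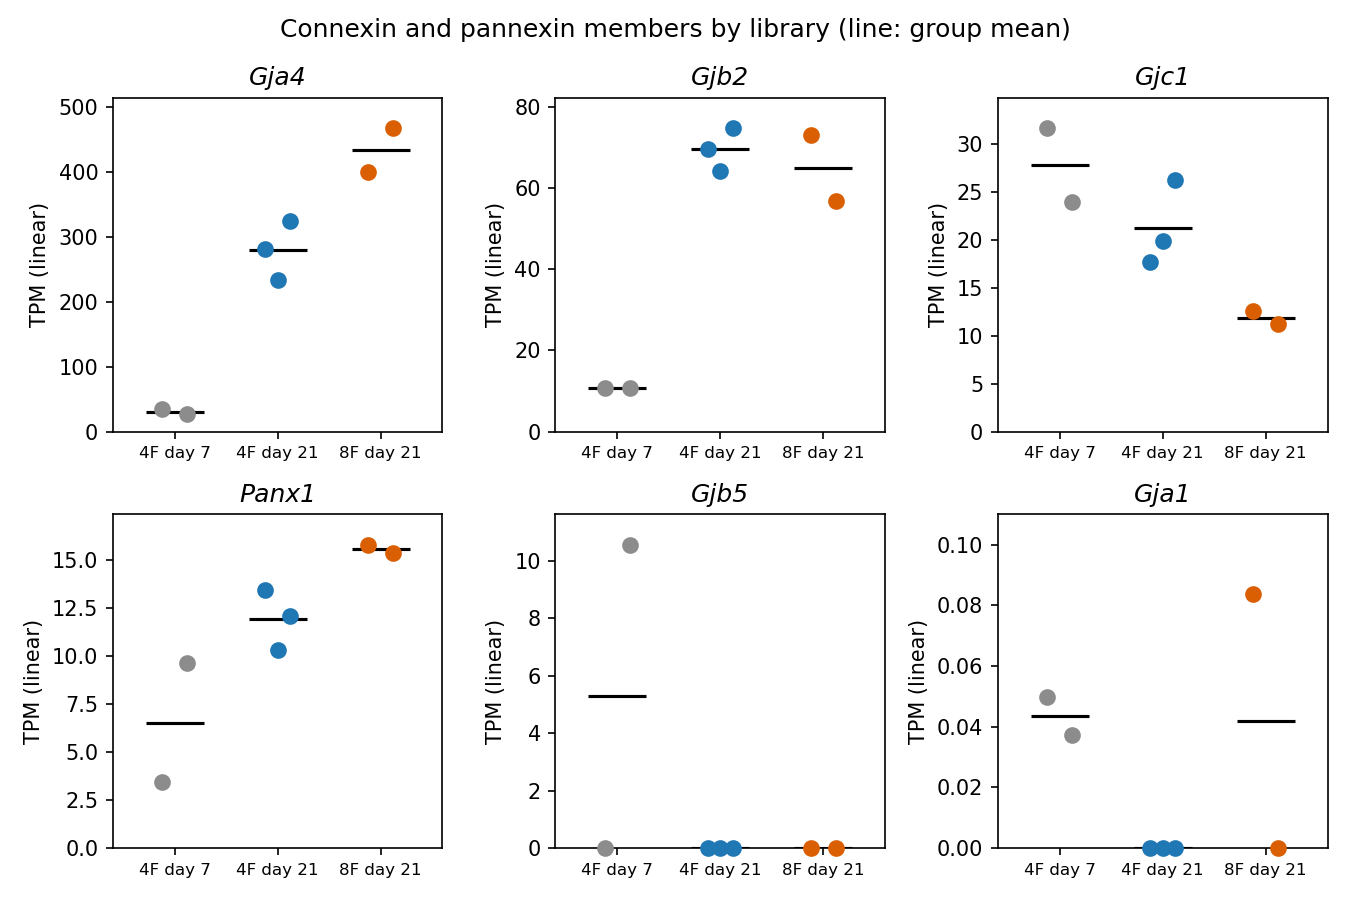
TPM of the 6 members in each library on linear axes that start at 0, with 1 point per library and a line at the group mean. Gja4 stood at 26.7 to 34.9 TPM at day 7, 234 to 324.5 TPM in 4F at day 21 and 399.3 to 466.7 TPM in 8F at day 21, and the Gja1 axis ends near 0.1 TPM.

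Gja4 was at 34.9 and 26.7 TPM in the 4F day 7 libraries, at 280.8, 234 and 324.5 TPM in the 4F day 21 libraries, and, in 8F at day 21, at 399.3 and 466.7 TPM. The 3 groups did not overlap. The group means were 30.8 ± 5.82 TPM (SD, n = 2), 279.8 ± 45.2 TPM (SD, n = 3) and 433.0 ± 47.6 TPM (SD, n = 2). Within a library, Gja4 stood above 76.1% to 80.8% of the 21780 tested genes at day 7, above 97.0% to 98.2% in 4F at day 21, and in the 8F libraries only 273 and 191 tested genes were higher. Estimated reads on Gja4 were 231 and 235 at day 7 and 1713 to 4444 at day 21.

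Gjb2, which encodes connexin 26, a connexin of liver, cochlea and placenta, was at 10.8 and 10.7 TPM in the 4F day 7 libraries, at 69.5, 64.2 and 74.6 TPM in the 4F day 21 libraries, and, in 8F at day 21, at 72.9 and 56.8 TPM. All 5 day 21 libraries lay above both day 7 libraries, and the 8F values lay on either side of the 4F values. The means were 10.7 ± 0.0973 TPM (SD, n = 2), 69.4 ± 5.22 TPM (SD, n = 3) and 64.8 ± 11.4 TPM (SD, n = 2).

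Gjc1 encodes connexin 45, a connexin of the early heart and of vessel walls. Its level was 31.6 and 23.9 TPM in 4F at day 7, 17.7, 19.9 and 26.2 TPM in 4F at day 21, and 12.5 and 11.2 TPM in 8F at day 21. The day 7 and day 21 ranges of 4F overlapped, while both 8F libraries lay below the other 5. The means were 27.7 ± 5.44 TPM (SD, n = 2), 21.25 ± 4.40 TPM (SD, n = 3) and 11.9 ± 0.924 TPM (SD, n = 2).

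Panx1, the channel through which many cells release ATP, was at 3.42 and 9.62 TPM in the 4F day 7 libraries, at 13.45, 10.3 and 12.1 TPM in the 4F day 21 libraries, and, in 8F at day 21, at 15.8 and 15.35 TPM. The groups did not overlap, although the second day 7 library came within 1 TPM of the lowest 4F day 21 library. The means were 6.52 ± 4.38 TPM (SD, n = 2), 11.95 ± 1.58 TPM (SD, n = 3) and 15.6 ± 0.326 TPM (SD, n = 2), and the pair of day 7 libraries spread more than any other group.

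Gja1 was at 0.0497 and 0.0373 TPM in the 4F day 7 libraries, at 0 in the 3 libraries of 4F at day 21, and at 0.0837 and 0 TPM in 8F. These values correspond to 2, 2 and 5 estimated reads over 10257 exonic bases, and 3 reads, the number taken here as the limit of detection, equal 0.0502 to 0.0745 TPM in these libraries. Gja1 was therefore above that limit in 1 of the 7 libraries, and the limit covers counting error only. Cells that lack this RNA and cells that hold too little of it cannot be told apart at this depth, nor can, in bulk samples, fewer cells of a type and less RNA per cell.

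Gjb5, which encodes connexin 31.1, a connexin of skin and placenta, was at 10.6 TPM in the second 4F day 7 library and at 0 in the other 6. The 10.6 TPM came from 95 estimated reads, and 3 reads equal 0.299 to 0.444 TPM. Of the protein-coding genes, 6 were at 10 TPM or more in that library and at 0 in all others, and 2 showed this pattern for the first 8F library, whereas none did for any of the other 5. Gja1 and Gjb5 did not reach 1 TPM in at least 2 libraries, so 4 of the 6 members entered the tests.

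The order of the levels changed between the groups. At day 7 it was Gja4, Gjc1, Gjb2, Panx1, Gjb5 and Gja1, where the ranges of Gja4 and Gjc1 overlapped, the means of Gjb2 and Panx1 differed by 4.21 TPM against summed SDs of 4.48, and Gjb5 overlapped both of its neighbours. In 4F at day 21 it was Gja4, Gjb2, Gjc1 and Panx1, none of which overlapped in range, with Gja1 and Gjb5 at 0. In 8F at day 21, Panx1 stood above Gjc1 in both libraries, and the other places were as in 4F except that Gja1 was above 0 in 1 library.

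The first comparison asks how the members changed as 4F-mini-oocytes went from day 7 to day 21. Of the 4 tested members, 2 rose (Gja4 and Gjb2) and 0 fell at FDR 0.05 in limma with Benjamini-Hochberg adjustment over all 21780 tested genes, where 40.6% of all tested genes passed, 25.3% higher and 15.3% lower. Of the genes past the threshold, 62.4% were higher at day 21, a share that was 48.6% with median-of-ratios scaling, 52.0% with quantile normalization and 37.5% with voom on estimated reads. Fold changes of this test are differences of log2(TPM + 1), which understate the change of low genes. Gja4 rose by 3.14 on this scale (SE 0.182, 95% interval 2.71 to 3.58, adjusted p = 8.71e-05), a 9.08-fold ratio of the mean TPM, and 556 of the tested genes (2.55%) had a larger value. Gjb2 rose by 2.58 (SE 0.155, 95% interval 2.21 to 2.95, adjusted p = 9.5e-05), a 6.47-fold ratio of the mean TPM, and 4.53% of tested genes had a larger value.

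Neither of the other tested members passed the threshold in this comparison. Gjc1 had a log2 fold change of -0.37 (SE 0.236, 95% interval -0.94 to 0.19, limma adjusted p = 0.253), but with median-of-ratios scaling, quantile normalization or voom on estimated reads it was -0.70 to -0.91 and passed (adjusted p = 0.0111 to 0.0434). Panx1 had a log2 fold change of 0.91 (SE 0.398, 95% interval -0.04 to 1.86, limma adjusted p = 0.116). It rested on the day 7 libraries, since without the second of them it was 1.54 (adjusted p = 0.0138) and without the first 0.28. The median over the 4 tested members was 1.75, beside 0.17 over all tested genes, and 3 of the 4 had day 21 libraries all above the day 7 libraries, a pattern found in 33.8% of tested genes.

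**Figure D2:**
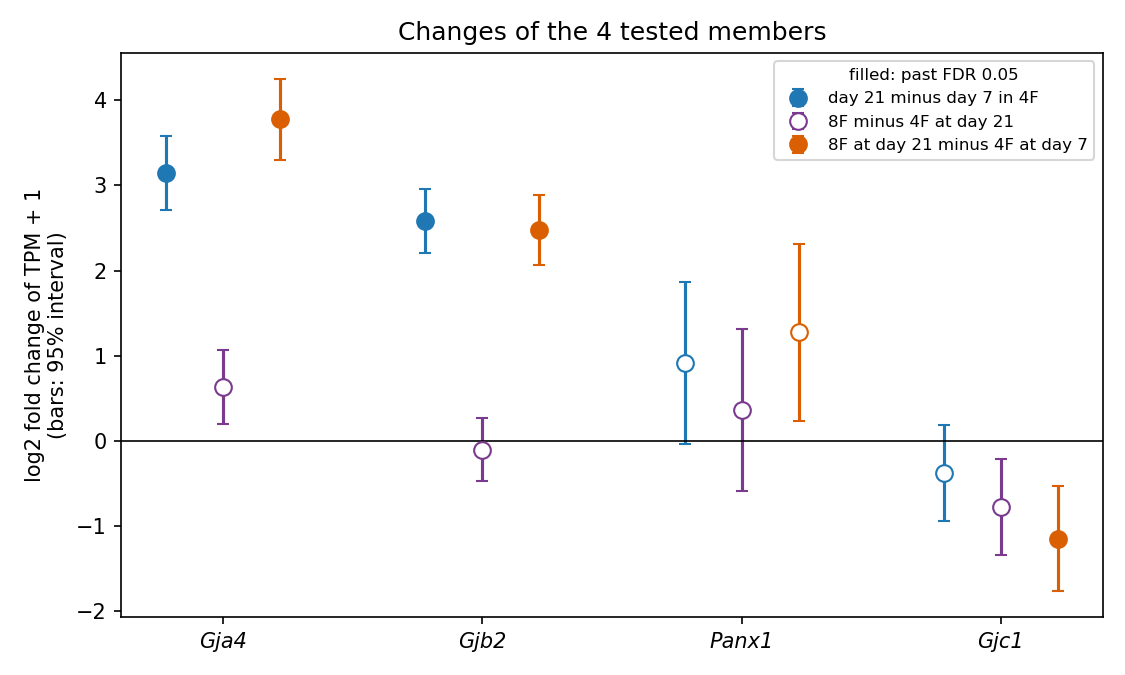
Log2 fold changes of TPM + 1 for the 4 tested members in the 3 comparisons, with bars for the 95% interval, and filled points for genes past FDR 0.05 in limma. Gja4 and Gjb2 lie above 2 in both comparisons with day 7, Gjc1 lies below 0 in all 3, and no point is filled for 8F minus 4F at day 21.

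The second comparison sets 8F against 4F at day 21, where both groups were pools of 10 cells. The 4 added factors, the cell line and the reporter of the 8F line cannot be told apart in it. Of the 4 tested members, 0 passed FDR 0.05 in limma, where 8.37% of all tested genes did (3.95% higher and 4.41% lower), and 2 had an unadjusted p under 0.05. Of all genes past the threshold, 47.3% were higher in 8F, and 62.3% with voom. Gja4 was 1.55-fold higher in 8F by the ratio of means, with a log2 fold change of 0.64 (95% interval 0.20 to 1.07, unadjusted p = 0.0109, adjusted p = 0.0903), and both 8F libraries lay above all 3 libraries of 4F. Gjc1 stood at 0.558 of its 4F mean, with a log2 fold change of -0.77 (95% interval -1.34 to -0.21, unadjusted p = 0.0146, adjusted p = 0.108), and both 8F libraries lay below all 3 libraries of 4F. Among all tested genes, 24.1% had 8F libraries that were all higher and 19.8% had 8F libraries that were all lower.

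Whether these differences passed changed between some alternatives, and neither passed in limma without the trend (adjusted p = 0.205 for Gja4 and 0.153 for Gjc1). With array weights, a limma option that gives noisier libraries less weight, the fold changes were 0.63 for Gja4 (adjusted p = 0.0306) and -0.77 for Gjc1 (adjusted p = 0.0335), and both passed. With voom on estimated reads, where the median over all tested genes was 0.26, Gja4 passed (0.78, adjusted p = 0.00758) and Gjc1 did not (adjusted p = 0.145). Gjb2 had a log2 fold change of -0.11 (95% interval -0.48 to 0.27, limma adjusted p = 0.772). Panx1 had a log2 fold change of 0.36 (95% interval -0.59 to 1.32, limma adjusted p = 0.680), and its 8F libraries were all higher. The median over the 4 tested members was 0.13, beside 0.06 over all tested genes.

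The third comparison sets 8F at day 21 against 4F at day 7 and shares its libraries with the other 2 comparisons, so it is not independent of them. Its groups also differ in factors, cell line, reporter, day, withdrawal of Shield1 and number of cells. In limma, 2 tested members rose and 1 fell, where 37.2% of all tested genes passed, 24.2% higher and 13.0% lower. The share of calls that were higher was 65.1%, and 51.5%, 51.1% and 47.2% with median-of-ratios scaling, quantile normalization and voom. The 8F libraries lay above both day 7 libraries for 3 of the 4 and below them for 1, as they did for 43.9% and 28.4% of all tested genes. Gja4 rose by 3.78 (SE 0.199, 95% interval 3.30 to 4.25, limma adjusted p = 0.00013), a 14.05-fold ratio of the mean TPM, and 311 tested genes (1.43%) had a larger value. Gjb2 rose by 2.48 (SE 0.170, 95% interval 2.07 to 2.88, limma adjusted p = 0.000228), a 6.04-fold ratio.

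Gjc1 fell by 1.15 on the log2 scale in this comparison (SE 0.258, 95% interval -1.77 to -0.53, limma adjusted p = 0.0143) to 0.428 of its day 7 mean. This call was lost without the first day 7 library (-0.95, adjusted p = 0.0679), without the first 8F library (-1.22, adjusted p = 0.0679) and without the second 8F library (-1.08, adjusted p = 0.094). Panx1 had a log2 fold change of 1.27 (SE 0.436, 95% interval 0.23 to 2.32, unadjusted p = 0.0238, limma adjusted p = 0.06), and passed without the second day 7 library (1.91, adjusted p = 0.00953), with array weights (adjusted p = 0.034) and with a filter of 5 TPM (adjusted p = 0.0486). The median over the 4 tested members was 1.88, beside 0.24 over all tested genes.

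Set against all 20 connexin genes in the table, Gja4 came to hold most of the connexin RNA. The summed TPM of the 20 genes was 98.2 and 90.9 in the 4F day 7 libraries, 378.2, 352.4 and 450.1 in the 4F day 21 libraries, and 509.1 and 555.9 in the 8F day 21 libraries. Gja4 held 29.4% to 35.6% of it at day 7, 66.4% to 74.3% in 4F at day 21 and 78.4% to 84.0% in 8F at day 21, and these ranges did not overlap.

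The share of Gjc1 went the other way, from 26.3% to 32.2% at day 7 to 4.68% to 5.81% in 4F and 2.02% to 2.46% in 8F. Gjb2 held 11.0% to 11.7% at day 7, 16.6% to 18.4% in 4F at day 21 and 10.2% to 14.3% in 8F at day 21. The level of Gja4 relative to Gjc1 within a library was 1.11 and 1.12 at day 7, 15.9, 11.8 and 12.4 in 4F at day 21, and 31.9 and 41.6 in 8F at day 21. A ratio within a library does not depend on the scaling between libraries, and the 3 groups did not overlap in it. Shares of estimated reads, without division by exon length, differ because Gjc1 has 5003 exonic bases and Gja4 1685. By reads, Gjc1 held a mean of 52.1% at day 7, 13.3% in 4F at day 21 and 5.98% in 8F at day 21, and Gja4 held 19.5%, 59.1% and 73.2%.

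**Figure D3:**
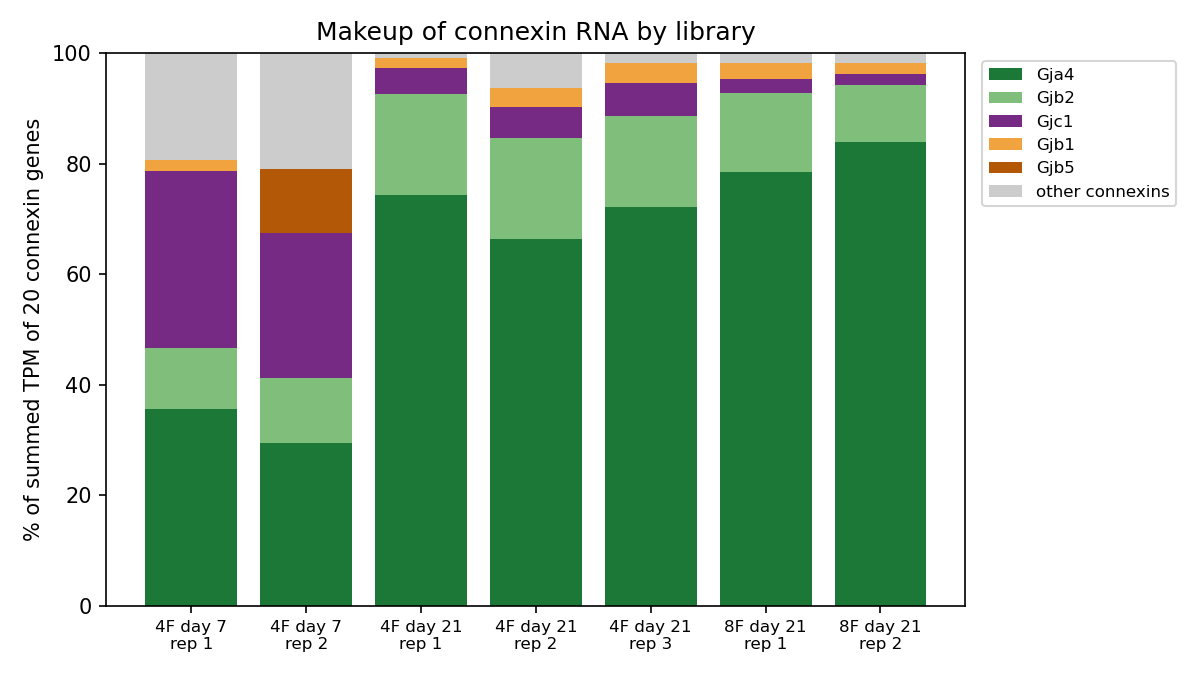
Share of the summed TPM of 20 connexin genes, in percent, held by each gene in the 7 libraries, as stacked bars that each add to 100%. The Gja4 segment grows from 29.4% to 35.6% at day 7 to at least 66.4% at day 21, and Gjb5 is seen in the second day 7 library only.

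Of the 15 other connexins, 7 could be tested, and in the 4F comparison of days 1 rose and 1 fell, with a median of 0.91 beside 0.17 over all tested genes. The shares over all tested genes were 25.3% and 15.3%. Gjb1 encodes connexin 32, the connexin of liver and of myelinating Schwann cells. It was at 1.94 and 0 TPM in the 4F day 7 libraries, at 7.13, 12.3 and 16.9 TPM in the 4F day 21 libraries, and, in 8F at day 21, at 15.5 and 11.5 TPM. All day 21 libraries were above both day 7 libraries, and Gjb1 rose by 2.86 in 4F (SE 0.572, limma adjusted p = 0.00802), a value that depends on the pseudocount because 1 day 7 library is at 0.

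Between 8F and 4F at day 21, 0 of the 7 other connexins passed in limma, where 8.37% of all tested genes did. Gja3, a connexin of the eye lens, was at 0.86 and 0.84 TPM at day 7, 2.3, 5.75 and 4.75 TPM in 4F at day 21 and 2.26 and 4.54 TPM in 8F, and was not called. Gjd4 and Gje1 were at 0 in every library. Of the other pannexins, Panx2 was at 0 in both day 7 libraries and at 0.331 to 3.52 TPM at day 21 without passing, and Panx3 was at 1.23 TPM in the second day 7 library and at 0 in the others.

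**Figure D4:**
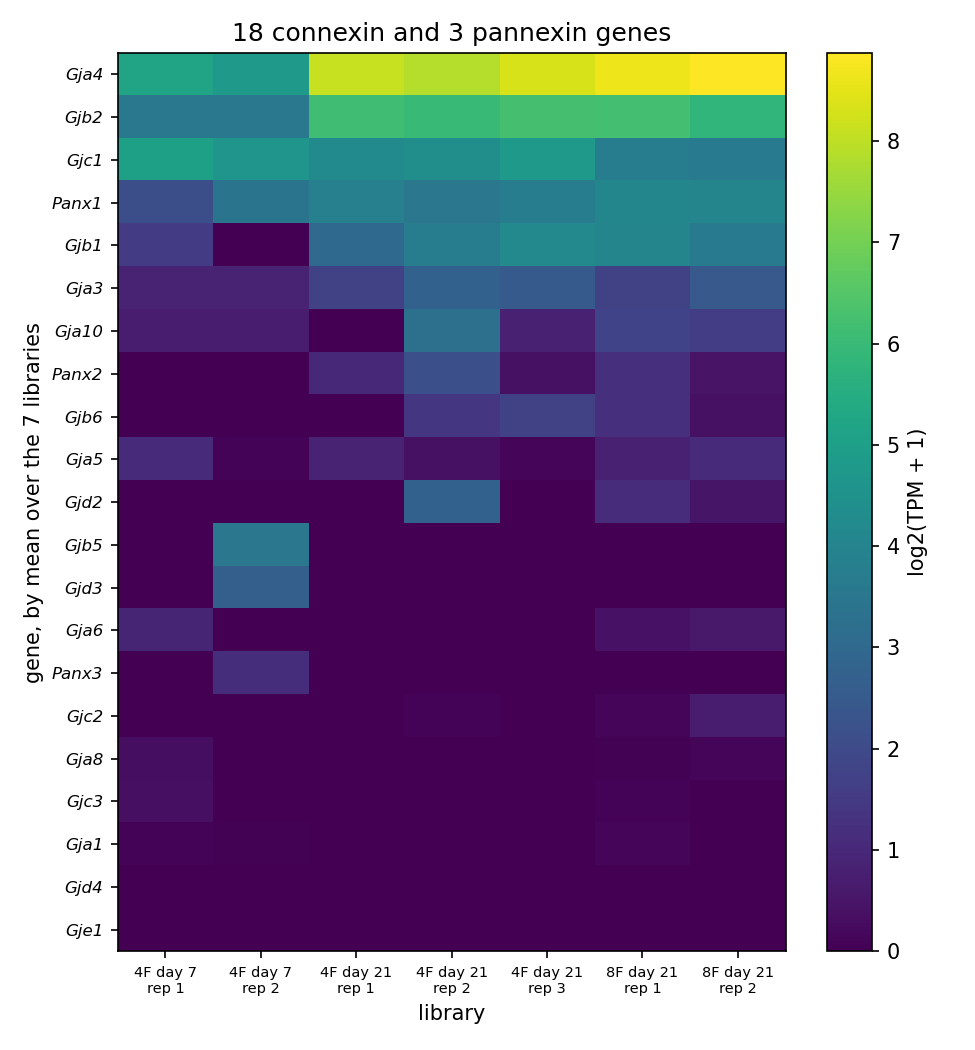
Levels of 18 connexin and 3 pannexin genes as log2(TPM + 1), with genes ordered from top to bottom by their mean over the 7 libraries and libraries in columns. Gja4 is the highest gene and brightens from day 7 to day 21, and Gjb5 is at 0 in all 5 day 21 libraries.

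Gjb2 lies between Gja3 and Gjb6 in a stretch of 99.2 kb on chromosome 14, where Gjb6 was at 0 at day 7 and had means of 1.32 and 0.807 TPM in 4F and 8F at day 21.

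RNA of other cell types was checked beside these changes. Of 7 tested trophoblast markers, 5 fell from day 7 to day 21 in 4F and 0 rose. In that comparison 15.3% of all tested genes fell and 25.3% rose. Of the 5, Gata3 and Hand1 reached 1 TPM only at day 7 and entered the test through that group. The summed level of all 11 such markers was 1204 to 1703 TPM at day 7, 60.1 to 154.8 TPM in 4F at day 21 and 54.8 to 61.2 TPM in 8F at day 21. Krt8, a keratin of simple epithelia, was at 659.5 and 863.3 TPM at day 7 and at 24.4 to 127.6 TPM at day 21. Gjc1 had its highest mean at day 7 and Gjb5 was found only there, and the part of such cells in their levels was not tested. The summed level of 8 endothelial markers was 11.0 to 15.8 TPM at day 7, 17.7 to 38.5 TPM in 4F at day 21 and 28.3 to 34.9 TPM in 8F at day 21. In 4F, 1 of the 3 tested endothelial markers, Flt1, rose (limma adjusted p = 0.0374), a call that held in 7 of 17 alternatives. Pecam1 and Tek were not called. Of all tested genes, 25.3% rose. All 3 markers had day 21 libraries above the day 7 libraries, as had Gja4, Gjb2 and 33.8% of all tested genes. The part of such cells in the levels of Gja4 and Gjb2 was not tested. The 8 fibroblast markers summed to 5.69 to 8.72 TPM at day 7 and to 0.265 to 1.72 TPM at day 21. The 8 pluripotency markers summed to 61.1 to 81.9 TPM at day 7, 224.3 to 345.3 TPM in 4F at day 21 and 122.9 to 163.7 TPM in 8F at day 21. They did not move together, since of the 5 tested, 2 rose (Pou5f1 and Esrrb) and 1 fell (Zfp42) between the days in 4F. In a library 2 to 4 of the 8 were at 0. The granulosa markers summed to 12.8 to 19.2 TPM at day 7, 11.9 to 29.8 TPM in 4F at day 21 and 17.5 to 21.2 TPM in 8F at day 21. In a library 2 to 8 of the 12 were at 0, and the highest were Nr5a2, at up to 18.2 TPM, and Kitl, at up to 11.0 TPM. Of the 6 tested, 1 (Nr5a2) rose and 0 fell between the days in 4F. Its log2 fold change was 1.53 (limma adjusted p = 0.0324), a call that held in 6 of 18 alternatives.

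Connexins are moved to the membrane, anchored, phosphorylated and degraded by other proteins, and 23 genes for such partners and regulators were examined. Of the 21 tested, 4 rose and 4 fell from day 7 to day 21 in 4F, with a median of 0.15 beside 0.17 over all tested genes. Over all tested genes, 25.3% rose and 15.3% fell. Csnk1e, a casein kinase, was at 98.6 TPM on average at day 7, at 285.5, 261.8 and 271.2 TPM in the 4F day 21 libraries and, in 8F, at 198.4 and 212.1 TPM. It rose by 1.46 (limma adjusted p = 0.000106) and was lower in 8F than in 4F (log2 fold change -0.41, limma adjusted p = 0.0435). The difference between 8F and 4F was called in only 7 of 17 alternatives. Those where it did not pass included median-of-ratios scaling (adjusted p = 0.0571) and quantile normalization (adjusted p = 0.0958).

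Cnst, or consortin, carries connexins from the Golgi to the membrane, and it rose from a mean of 9.996 ± 3.07 TPM (SD, n = 2) to 23.5 ± 3.10 TPM (SD, n = 3) in 4F (log2 fold change 1.18, limma adjusted p = 0.00755). In 8F its mean was 45.0 ± 4.20 TPM (SD, n = 2), which did not differ from 4F at the threshold (limma adjusted p = 0.0647). Nedd4, a ubiquitin ligase that acts on connexin 43, fell by 1.84 in 4F (limma adjusted p = 0.000522), from a mean of 56.8 to 15.3 TPM. It was lower again in 8F, at 7.00 TPM (log2 fold change -1.02, limma adjusted p = 0.0241), a call that held in 12 of 17 alternatives.

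Prkaca and Smurf2 also rose in 4F, and Src and Tuba1b fell. Prkaca, a catalytic subunit of protein kinase A, had a log2 fold change of 1.07, which was 0.60 and did not pass with voom, and Smurf2, another ubiquitin ligase, had 0.80, which shrank to 0.26 and 0.27 and did not pass with quantile normalization or voom. Src, a tyrosine kinase that closes connexin 43 channels, went from a mean of 5.36 TPM to 0.163 TPM (limma adjusted p = 0.00397). It reached 1 TPM only at day 7 and so entered the test through the group where it was high. Tuba1b, a tubulin with near-identical copies in the genome, was at 59.9, 14.8 and 61.6 TPM in the 3 groups in the order above, and its values are uncertain because reads were kept only where they mapped uniquely.

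Tjp1, the scaffold ZO-1 that binds the tail of connexin 43, was at 115.6 and 133.7 TPM at day 7, 142.6, 129.6 and 136.1 TPM in 4F at day 21 and 86.4 and 102.8 TPM in 8F at day 21. It did not pass in the comparison of days (log2 fold change 0.13, limma adjusted p = 0.450), and its sign turned with quantile normalization (-0.49, adjusted p = 0.0186) and voom (-0.42, adjusted p = 0.0105). The difference between 8F and 4F just missed the threshold (-0.52, limma adjusted p = 0.0512). Cdh1 and Tubb5, the other genes of the list with the highest levels, were not called between the days in 4F. Between 8F and 4F, 1 gene of this list was higher (Tuba1b, a call that held in 12 of 18 alternatives) and 2 were lower (Csnk1e and Nedd4). Over all tested genes the shares were 3.95% higher and 4.41% lower. Between 8F at day 21 and 4F at day 7, 7 genes of the list were higher and 3 lower. There the shares were 24.2% and 13.0%. The list medians were 0.17 and 0.32, beside 0.06 and 0.24 over all tested genes.

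Cyclic AMP made in the oocyte, and cyclic GMP that reaches it through gap junctions, are set by a second list of 11 genes. Of the 10 tested, 3 rose and 0 fell from day 7 to day 21 in 4F, with a median of 0.58 beside 0.17 over all tested genes. Among all tested genes 25.3% rose and 15.3% fell, so the count of 3 is near the general share. Pde3a, the phosphodiesterase that breaks down cyclic AMP in oocytes, was at 22.9 and 27.4 TPM at day 7, 108.1, 97.6 and 97.0 TPM in 4F at day 21 and 72.0 and 76.8 TPM in 8F at day 21. It rose by 1.97 in 4F (limma adjusted p = 0.00012), and the 8F libraries lay below the 4F libraries without passing (-0.43, limma adjusted p = 0.099).

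Gpr3, the receptor whose constant activity keeps cyclic AMP high in the oocyte, was at 2.98 and 7.00 TPM at day 7, 9.45, 10.5 and 14.9 TPM in 4F at day 21 and 27.0 and 30.4 TPM in 8F at day 21. It rose by 1.14 in 4F (limma adjusted p = 0.0471), a call that held in 3 of 18 alternatives, and by 2.39 between 4F at day 7 and 8F at day 21 (limma adjusted p = 0.00495), which held in all 18. Gnas, which encodes the stimulatory G protein behind Gpr3, had a log2 fold change of 0.58 between the days in 4F (limma adjusted p = 0.0065), but -0.03 with quantile normalization. It was lower in 8F than in 4F at day 21 (-0.66, limma adjusted p = 0.0202), which held in 11 of 17 alternatives.

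Prkar1a, a regulatory subunit of protein kinase A, was at 85.5 and 63.5 TPM at day 7, 105.9, 83.8 and 113.4 TPM in 4F at day 21 and 180.3 and 193.3 TPM in 8F at day 21. It was higher in 8F than in 4F (log2 fold change 0.89, limma adjusted p = 0.0338), a call that held in 10 of 18 alternatives. Gpr12, a receptor close to Gpr3, was listed at 0 in all 5 libraries of 4F and at 1.37 and 1.34 TPM in 8F, and its call held in 7 of 15 alternatives. Only the 8F libraries carried Gpr12 past the filter of 1 TPM in 2 libraries, so the filter itself favoured this call. Nppc, another gene of this list, also passed that filter only through the 8F libraries. Of this list, 2 genes were higher (Gpr12 and Prkar1a) and 1 was lower (Gnas) in 8F than in 4F at day 21. The median, with Gpr12 and Nppc included, was 0.49 beside 0.06 over all tested genes, of which 3.95% were called higher and 4.41% lower. Between 8F at day 21 and 4F at day 7, 5 were higher and 0 lower, with a median of 1.25 beside 0.24. Gpr12 and Nppc were among the 5, and the filter favoured both of these calls and raised the median. There, 24.2% of all tested genes were higher and 13.0% lower.

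**Figure D5:**
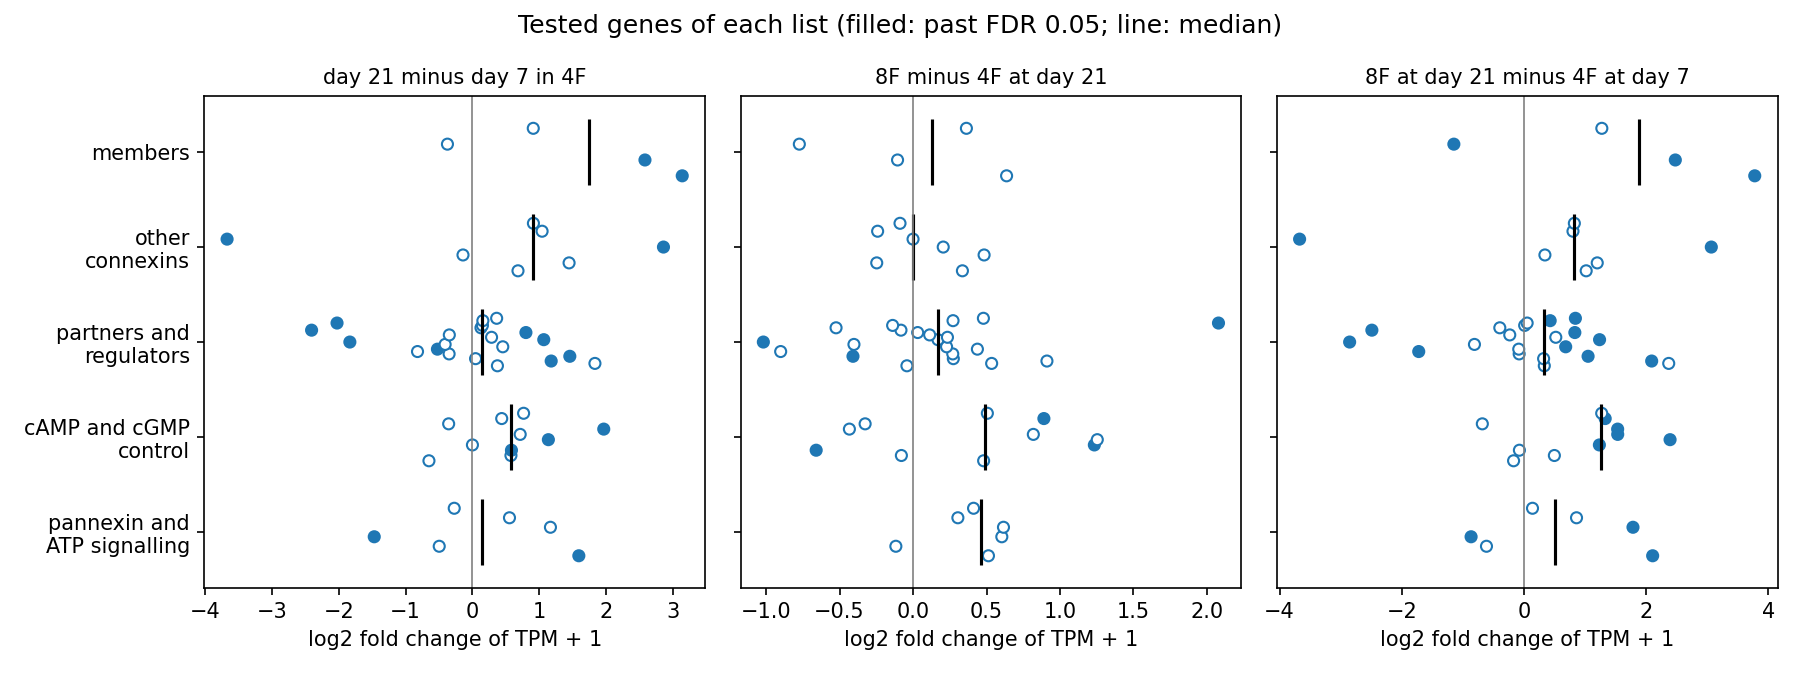
Log2 fold changes of TPM + 1 of the tested genes of each list, with 1 panel for each comparison and its own horizontal scale, points filled where a gene passed FDR 0.05 in limma, and a line at the median of the list. The 4 tested members have medians of 1.75, 0.13 and 1.88, and the partners and regulators lie on both sides of 0.

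Panx1 channels feed ATP to receptors and ectoenzymes, for which 10 genes were examined. Of the 6 tested, 1 rose and 1 fell from day 7 to day 21 in 4F, with a median of 0.14. Over all tested genes, 25.3% rose and 15.3% fell, with a median of 0.17. Entpd1, which breaks down ATP outside cells, went from 71.9 and 97.8 TPM to 35.8, 30.6 and 23.7 TPM in 4F (-1.47, limma adjusted p = 0.00226) and was at 46.9 and 44.3 TPM in 8F. Between 8F and 4F, 0 of the 6 passed, with a median of 0.46, where 8.37% of all tested genes passed. Between 8F at day 21 and 4F at day 7 there were 2 higher, among them Entpd2, and 1 lower (Entpd1), with a median of 0.50. The shares over all tested genes there were 24.2% higher and 13.0% lower.

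The genes whose levels followed each tested member most closely over the 7 libraries were found by Pearson's r of log2(TPM + 1) among 9701 protein-coding genes. For Gja4 these were Wdr82 (r = 0.999), Slc6a9 (r = 0.999), which encodes a glycine transporter, and Tex264 (r = 0.998). For Gjb2 they were Pes1 (r = 0.997), Fbxw27 (r = 0.997) and Atp10b (r = 0.997). For Gjc1 they were Rexo4 (r = 0.991), Med13 (r = 0.985) and Wdr35 (r = 0.985), and for Panx1 Tmem200b (r = 0.987), Bet1 (r = 0.986) and Rnf125 (r = 0.982). The 7 points fall into 3 groups that differ in day, withdrawal of Shield1, cells pooled and factors. The closest of so many genes must reach a high r, so these values describe a shared pattern only.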

How the data were processed

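The authors clipped reads (Trim Galore!), mapped them with Hisat2 on mm10, discarded rRNA (Bedtools) and multiply mapped reads, assigned the rest to GENCODE vM25 genes (featureCounts; overlapping genes share a read, no strand option stated) and deposited TPM. Tool versions, and the instrument used for each library, are not given in the sources used here. The study tested counts, which the deposited TPM are not. Here limma 3.58.1 (R 4.3.3) was fitted to log2(TPM + 1) of the genes that reached 1 TPM in 2 or more of the 7 libraries (3 groups, eBayes with a trend, two-sided, Benjamini-Hochberg over 21780 genes, FDR 0.05). The fit was also run on simulated reads with the same spread in all groups, unlike these libraries, so that run does not bear on the calls. Reads were estimated from the TPM steps and the exon lengths of GENCODE vM21, which matched 98.1% of genes. Alternatives covered pseudocount, filter, scaling, variance model, samples, replicate block, voom and each library left out. The members and lists were chosen with earlier results of these data known. Listed genes were named if they passed in 2 comparisons or reached a group mean of 10 TPM, with full values for at most 4 per list. Genes outside that rule, such as Gja3, the genes at 0 and the markers, were picked after their values were seen. Some genes of the lists are counted but not reported singly here.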

Additional observations from a re-analysis of the deposited data

How the results depend on the processing

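Over 18 alternatives each, the 12 fold changes of the tested members gave 216 values, of which 201 kept direction and side of the threshold, 10 newly passed, 3 no longer passed and 2 reversed. Gja4 and Gjb2 passed in every alternative of both comparisons with day 7, with adjusted p of 4.6e-05 to 0.00261 for Gja4 and 5.37e-05 to 0.00276 for Gjb2 between the days in 4F. The count of members past FDR 0.05 stayed at 2 to 3 between the days in 4F and at 2 to 4 between 8F at day 21 and 4F at day 7. Between 8F and 4F it went from 0 to 2 with array weights and to 1 with voom on estimated reads, and was 0 to 0 with 1 library left out. The log2 fold change of Gjb2 there reversed to 0.038 with voom, and ranged from -0.28 to 0.072 with 1 library left out, where it was above 0 only without the second 8F library, with no call. The causes were not tested.

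Counts over all genes moved most between 8F and 4F, from 1822 to 994 without the trend, 3572 with array weights and 86 to 2231 with 1 library left out, lowest without the first 8F library (86) and the second (98). Between 8F at day 21 and 4F at day 7 they fell from 8103 to 3777 and 3642 without the first and the second 8F library. With replicate numbers as a block, limma called 164 genes between 8F and 4F and left the member counts at 2, 0 and 3. Over all tested genes, deviations of same-numbered libraries from their group means had r of -0.037 to 0.011. In a group of 2 libraries these deviations mirror each other, so r cannot show whether same-numbered samples were prepared together. Where 1 library of 2 is left out, the other is assumed to vary like the other groups.

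Over all tested genes, the median change between the days in 4F was 0.17 (log2), but -0.06 with median-of-ratios scaling, 0.04 with quantile normalization and -0.32 with voom. With 2 or 3 libraries in a group, small changes of the members could not be seen, and Gja1 and Gjb5, at or under the limit of detection in 6 of 7 libraries each, were tested only without the filter, where neither passed.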
